A study of Rattus norvegicus with 40 samples.

Results

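The SLC7 light chains and their heavy chain Slc3a2 are membrane carriers that move cystine, cationic amino acids and large neutral amino acids across the plasma membrane. Of the 17337 genes in the count files, 8 were described here, namely Slc7a11, Slc3a2, Slc7a1, Slc7a2, Slc7a5, Slc7a8, Slc7a6 and Slc7a7. They were taken by symbol, and all 8 were found in the 40 libraries. Slc7a11 was chosen by its measured levels, for a large rise in a comparison that the choice does not state, and Slc7a1 because the paper names it at 8 and 14 weeks. For that reason the contrast of DEN-treated with untreated tissue is a description for Slc7a11 at every age and for Slc7a1 at 8 and 14 weeks, with no test. Slc7a5 and Slc7a8 carry mainly neutral amino acids, and they are included as partners of the same heavy chain.

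Messenger RNA of liver was measured by RNA-seq in 24 male Fischer 344 rats, 4 in each group. The carcinogen DEN (diethylnitrosamine), which hepatocytes convert into an agent that alkylates DNA, was injected into the peritoneum once a week at 50 mg/kg from 7 weeks of age. Non-tumoral liver (NT) was sampled after 8 weeks of injections, after 14 weeks, and at 20 weeks, when rats had received 14 weeks of injections and then 6 weeks without any. At 14 and 20 weeks 2 tumor nodules (T) of each of the same rats were sampled as well. The 3 control groups, called no DEN, were liver of rats of the same ages without DEN, and no separate control for the injection itself is given in the labels. All rats were males of 1 inbred strain, and each library holds the RNA of a piece of whole tissue, in which fewer cells of a type and less RNA per cell cannot be told apart. Among the 12 DEN-treated rats, 4 carry a label that begins with F (F09 and F10 at 8 weeks, F06 at 14 weeks and F03 at 20 weeks), while the other DEN-treated rats and all 12 no DEN rats carry H. What the letter stands for is not given.

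Most of these light chains reach the membrane only when joined by a disulfide bond to the heavy chain encoded by Slc3a2, also called CD98 or 4F2hc. Slc7a11 (xCT) with Slc3a2 forms system xc-, which takes up cystine in exchange for glutamate and so supplies cysteine for glutathione. Slc7a5 (LAT1) and Slc7a8 (LAT2) exchange large neutral amino acids, and Slc7a7 (y+LAT1) and Slc7a6 (y+LAT2) exchange cationic for neutral amino acids. Slc7a1 (CAT1) and Slc7a2 (CAT2) work without the heavy chain and carry arginine, lysine and ornithine. CAT2 is the carrier of this kind that healthy hepatocytes are known for, whereas CAT1 and xCT are known to be low in resting liver and are induced in many cells through the transcription factors ATF4 and, for xCT, NRF2.

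The windows of 250 bases before the RefSeq start sites of the 2 members named by the choice are shown because both factors bind short motifs in promoters. Capitals mark matches to the core of the antioxidant response element bound by NRF2 (TGACNNNGC) or of the amino acid response element bound by ATF4 (TGATGNAA), searched on both strands. The sequences are those of RefSeq on build GRCr8, which is not the build rn6 used for the counts.
Slc7a11, chr2:136668265-136668514, minus strand: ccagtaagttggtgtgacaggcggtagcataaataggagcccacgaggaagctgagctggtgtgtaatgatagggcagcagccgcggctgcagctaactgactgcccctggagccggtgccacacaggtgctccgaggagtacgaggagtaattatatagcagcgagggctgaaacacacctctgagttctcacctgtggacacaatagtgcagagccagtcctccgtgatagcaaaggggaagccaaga
Slc7a1, chr12:11664238-11664487, plus strand: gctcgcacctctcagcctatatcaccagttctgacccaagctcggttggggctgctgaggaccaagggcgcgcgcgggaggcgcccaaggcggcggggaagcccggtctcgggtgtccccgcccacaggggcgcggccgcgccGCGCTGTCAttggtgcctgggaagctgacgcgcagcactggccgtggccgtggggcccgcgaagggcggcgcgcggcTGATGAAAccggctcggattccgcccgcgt
The Slc7a1 window held a match to each core, the first beginning 107 bases and the second 30 bases before the start site. The Slc7a11 window held neither. Among all 33469 windows of this length, 10.08% held the first core and 3.40% the second. RefSeq windows were matched for 7 of the 8 members, with 8 windows in all since Slc3a2 has 2 start sites. The first core was also found at the downstream Slc3a2 start site (GCGGAGTCA, 45 bases before it) and at Slc7a7 (TGACCGAGC, 192 bases before it), and the windows of Slc7a5, Slc7a6 and Slc7a8 held no match to either. In the Slc7a1 window the 2 matches did not overlap. A match is a description of these letters only.

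Counted read pairs per library ranged from 20528515 to 160622633 with a median of 30477421, and the deepest library, NT liver of rat H26 at 20 weeks, held 4.08 times as many as the next. Levels are given as CPM (counts scaled to a common library total) after TMM scaling of library sizes, with the counts of the 2 nodules of a rat added. No transcript lengths of rn6 were at hand, so levels are compared between groups for a gene and not between genes. Summed CPM of 8 hepatocyte genes ran from 105200 to 259700 over all groups, and all 8 were detected in each group.

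Differences between groups were tested by edgeR (quasi-likelihood), and p-values were adjusted after Benjamini and Hochberg over all genes tested. With thresholds taken from the paper as read here, a gene was called in NT against no DEN liver when its log2 fold change reached 1 in either direction and its adjusted p was 0.01 or less, and in nodules when they reached 0.5 and 0.05. All 8 members passed the filter on low counts in every comparison of DEN-treated with no DEN tissue, but Slc7a1 and Slc7a11 at each age, and Slc7a6 at 20 weeks, did so only through the DEN-treated samples, where they were high. Genes of that kind had to differ, so their values are given as a description and they are left out of the counts. In NT liver 1 of the 6 members with a test was called at 8 weeks (Slc7a6, higher), where 7.91% of all genes were called, 2 of 6 at 14 weeks (Slc7a5 and Slc7a6, higher), where 15.2% were, and 0 of 5 at 20 weeks by edgeR and by DESeq2 (4 at an unadjusted p of at most 0.05), where 5.22% were. In nodules 6 of 6 were called at 14 weeks (39.1% of all genes) and 4 of 5 at 20 weeks (38.8% of all genes). Of those 5 and 3 were higher and 1, Slc7a2, was lower at each age, and the higher direction held 23.9% and 23.6% of all genes. With the thresholds used for nodules, NT liver gave 5 of 6, 6 of 6 and 3 of 5 members at the 3 ages in turn, where 21.7%, 32.6% and 18.1% of all genes were called. Over the genes that passed the filter in no DEN liver alone, the shares called were 6.08%, 11.6% and 3.59% in NT liver and 35.6% and 35% in nodules. The share of all genes whose groups do not overlap was not counted, so a lack of overlap is given below as a description.

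**Figure D1:**
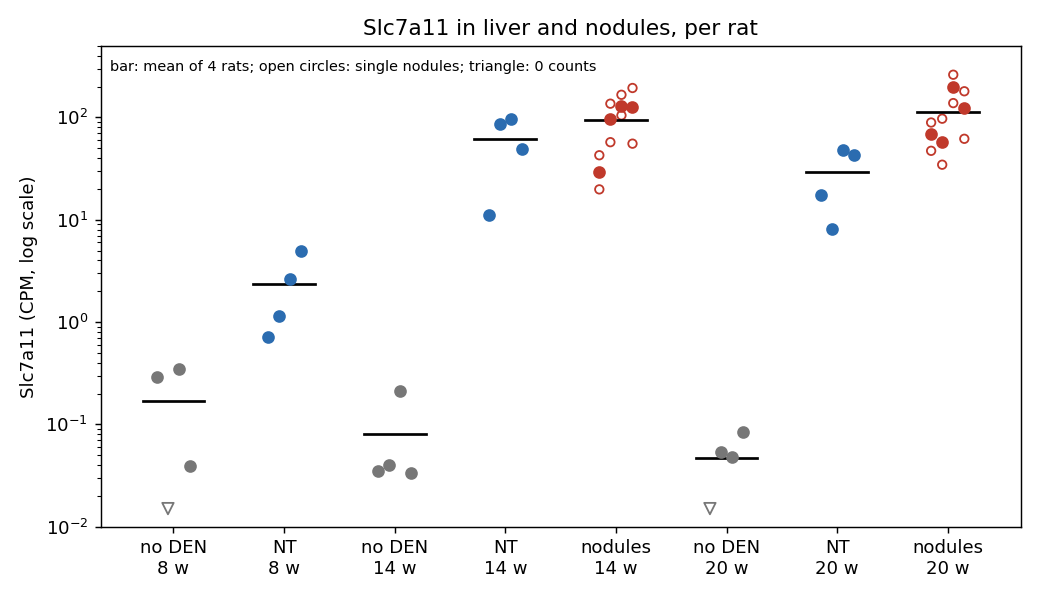
Slc7a11 level in CPM (log scale) for each rat in the 8 groups by treatment, tissue and week. Filled points are rats, open circles are the single nodules, bars are means of 4 rats and triangles are libraries with 0 counts. No DEN livers lie at or below 0.348 CPM, while NT liver at 14 and 20 weeks and all nodules lie above 8 CPM.

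Slc7a11, the light chain of the cystine exchanger, was close to the detection limit in no DEN liver and was detected in every DEN-treated sample, by 8616 read pairs or more per group from 14 weeks. No DEN liver at 8 weeks had 0.288, 0, 0.348 and 0.0395 CPM, which came from 7, 0, 9 and 1 read pairs. NT liver at 8 weeks had 0.708, 1.14, 2.66 and 4.98 CPM in rats F09, F10, H17 and H18. The 2 groups did not overlap, and the pooled level was 13.3 times higher in NT liver, with an exact 95% interval of 8.18 to 23.2 that covers counting error only.

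At 14 weeks the no DEN livers held 1, 1, 6 and 1 read pairs of Slc7a11 (0.0353, 0.0400, 0.213 and 0.0331 CPM). NT liver of the same age had 11.1, 87.1, 96.5 and 49.5 CPM in rats F06, H21, H22 and H23, and nodules of those rats had 29.2, 95.5, 129 and 125 CPM. Every DEN-treated value lay above every no DEN value, and the lowest NT value was 51.9 times the highest no DEN value. The pooled level was 755 times that of no DEN liver in NT liver (interval 398 to 1650) and 1220 times in nodules (645 to 2680).

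At 20 weeks the no DEN livers held 0, 1, 1 and 2 read pairs of Slc7a11 (0, 0.0538, 0.0476 and 0.0844 CPM), where a count of 0 allows up to 3 read pairs. NT liver had 17.3, 8.12, 47.9 and 42.8 CPM in rats F03, H25, H26 and H28, and nodules of the same rats had 69.1, 57.9, 199 and 125 CPM. Thus 6 weeks after the last injection NT liver was at a mean of 29.0 ± 19.3 CPM (SD, n = 4), against 61.0 ± 39.0 at 14 weeks, with overlapping ranges. The pooled ratio to no DEN liver was 810 in NT liver (316 to 2970) and 2350 in nodules (919 to 8630). The width of these intervals is set by the 4 read pairs of the control group.

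The rats labelled F had the lowest Slc7a11 levels of their group at 8 weeks and, in NT liver and nodules, at 14 weeks. Over the rats labelled H alone the means were 3.82 CPM in NT liver at 8 weeks (n = 2), 77.7 ± 24.9 and 116 ± 18.2 CPM in NT liver and nodules at 14 weeks (n = 3 each), and 32.9 ± 21.6 and 127 ± 70.4 CPM at 20 weeks (n = 3 each). Slc7a2 was also lowest in the rats labelled F in NT liver at 8 and 20 weeks and in nodules at both ages. In NT liver at 8 weeks its mean was 24.97 CPM in rats labelled F and 55.45 CPM in those labelled H. Slc3a2 was lowest in F06 in NT liver and nodules at 14 weeks. In F03 at 20 weeks the same held for Slc3a2 and Slc7a1 in NT liver and for Slc7a8 in nodules. The part of the letter in these levels was not tested.

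**Figure D2:**
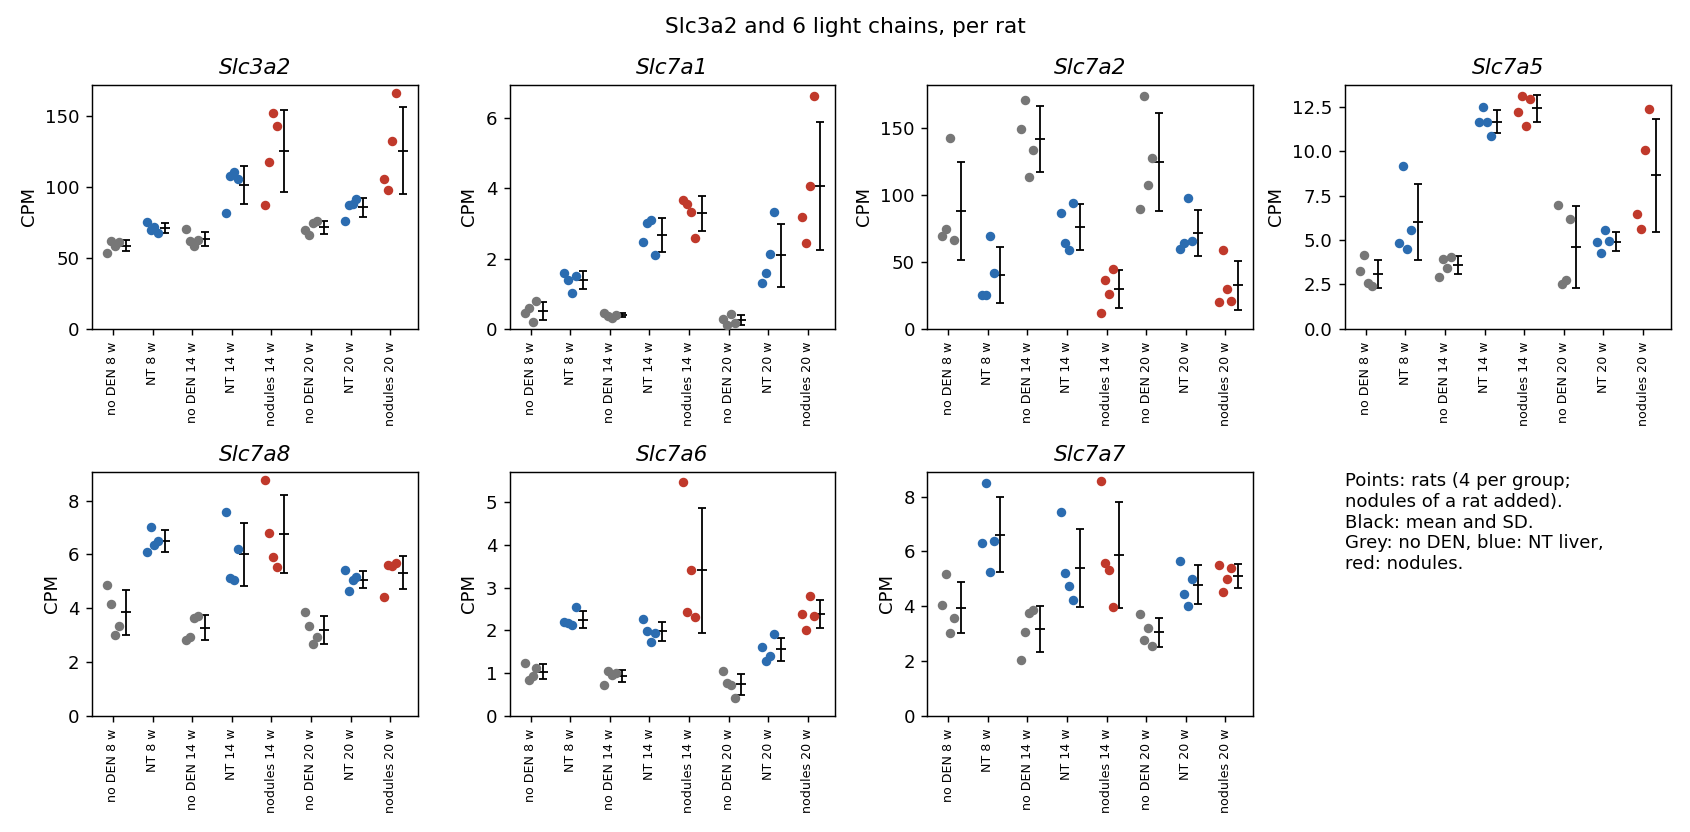
CPM of Slc3a2 and of 6 light chains for each rat (points, 4 per group, linear axes from 0) with mean and SD in black. Slc7a1 is higher and Slc7a2 lower in DEN-treated than in no DEN tissue, and Slc7a5 in NT liver is high at 14 weeks and back among the no DEN values at 20 weeks.

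Slc3a2, the shared heavy chain, was present at 53.2 CPM or more in each no DEN liver, and its group means in DEN-treated tissue were 1.20 to 1.98 times those of no DEN liver. No DEN livers had 53.2 to 61.8 CPM at 8 weeks, 58.5 to 70.4 at 14 weeks and 66.5 to 76.2 at 20 weeks. NT liver had 67.6 to 75.3 CPM at 8 weeks, and 82.0, 108, 111 and 105 CPM at 14 weeks in F06, H21, H22 and H23. Both times NT liver lay above all no DEN livers, by a log2 fold change of 0.27 (SE 0.07, adjusted p = 0.0155) at 8 weeks and of 0.71 (SE 0.10, adjusted p = 0.000153) at 14 weeks, which are both below the 2-fold limit used for NT liver. At 20 weeks NT liver had 76.0, 87.2, 88.3 and 91.6 CPM and overlapped with no DEN liver, with a log2 fold change of 0.28 (SE 0.08, adjusted p = 0.0306).

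In nodules Slc3a2 rose at both ages. The nodules of rats F06, H21, H22 and H23 had 87.7, 118, 153 and 143 CPM at 14 weeks, a log2 fold change of 0.96 (SE 0.16, adjusted p = 0.00114), and those of F03, H25, H26 and H28 had 106, 97.9, 132 and 167 CPM at 20 weeks, a log2 fold change of 0.79 (SE 0.15, adjusted p = 0.00187). All nodule values were above those of the no DEN livers of their age. The difference of NT from no DEN liver (the NT effect) was larger for Slc3a2 at 14 than at 8 weeks by 0.44 on the log2 scale (SE 0.12, adjusted p = 0.037), where 8.96% of all genes changed by that test. This call was lost when any of 12 of the 16 rats was left out (F09, F10, H06, H07, H08, H10, H11, H12, H18, H21, H22 or H23, adjusted p from 0.0517 to 0.11, differences from 0.36 to 0.46) and in the fit of all 8 groups (adjusted p = 0.263).

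Slc7a1, the cationic carrier CAT1, was low in no DEN liver and higher in every DEN-treated sample. No DEN livers held 5 to 20 read pairs at 8 weeks, 9 to 13 at 14 weeks and 2 to 9 at 20 weeks, which were 0.193 to 0.790, 0.320 to 0.459 and 0.108 to 0.428 CPM. NT liver had 1.60, 1.40, 1.03 and 1.51 CPM at 8 weeks and 2.46, 3.02, 3.11 and 2.09 CPM at 14 weeks, and nodules at 14 weeks had 3.68, 3.56, 3.34 and 2.58 CPM. The group means were 2.73, 6.95 and 8.56 times those of no DEN liver, given without a test since the paper names the gene at these ages.

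At 20 weeks NT liver had 1.31, 1.58, 2.13 and 3.34 CPM of Slc7a1 in F03, H25, H26 and H28, with a mean 8.47 times that of no DEN liver. Nodules had 3.19, 2.43, 4.08 and 6.62 CPM in the same order of rats, with a mean 16.5 times that of no DEN liver. No test is given, since the gene passed the filter only through the DEN-treated samples. The lowest of these values was above the highest no DEN value of 0.428 CPM, and rat H28 had the highest level in both tissues.

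Slc7a2, the cationic carrier of untreated hepatocytes, was the 1 member lower in DEN-treated tissue. At 14 weeks no DEN livers had 149, 170, 113 and 133 CPM, NT livers 86.3, 64.0, 58.9 and 94.1 CPM in F06, H21, H22 and H23, and nodules of the same rats 11.5, 36.5, 25.7 and 44.5 CPM. The 3 tissues did not overlap. Nodules fell by 2.28 on the log2 scale (SE 0.36, adjusted p = 0.000825), and NT liver gave a log2 fold change of -0.87 (SE 0.17, adjusted p = 0.00236), short of the 2-fold limit.

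At 20 weeks no DEN livers had 89.0, 174, 107 and 127 CPM of Slc7a2, NT livers 59.7, 64.0, 97.2 and 65.6, and nodules 19.7, 58.6, 29.8 and 20.99 in F03, H25, H26 and H28. NT liver overlapped with no DEN liver through rat H26 (log2 fold change -0.77, SE 0.22, adjusted p = 0.0292), and nodules lay below both the no DEN and the NT livers and fell by 1.96 (SE 0.35, adjusted p = 0.00148) against no DEN liver. At 8 weeks NT liver had 24.98, 24.96, 69.5 and 41.4 CPM and no DEN liver 69.1, 74.3, 142 and 66.0 CPM, with a log2 fold change of -1.13 (SE 0.38, adjusted p = 0.0433) that missed the threshold for NT liver.

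The summed CPM of the hepatocyte genes moved in the same direction as Slc7a2. The median of the sum was 234600 in no DEN liver, 146600 in NT liver and 132200 in nodules at 14 weeks, and 231800, 180100 and 139300 at 20 weeks. At 8 weeks it was 230700 in no DEN liver and 209900 in NT liver. Alb made up most of the sum, with means of 210200 CPM in no DEN liver and 115700 CPM in nodules at 14 weeks. In nodules 6 of the 8 hepatocyte genes were lower and 1 (Apoa1) higher at 14 weeks, and 7 lower and 1 (Apoa1) higher at 20 weeks, where 39.1% and 38.8% of all genes were called in either direction. The part of hepatocyte content in the level of Slc7a2 was not tested.

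Slc7a5, the neutral carrier LAT1, was high in NT liver at 14 weeks and within the range of no DEN liver at 20 weeks. In nodules of 20 weeks its mean was 8.63 against 4.61 CPM in no DEN liver. No DEN livers had 2.90, 3.92, 3.44 and 4.04 CPM at 14 weeks, while NT livers had 11.6, 12.5, 11.7 and 10.9 CPM and nodules 12.2, 13.1, 11.4 and 12.96 CPM in F06, H21, H22 and H23. The NT and nodule values lay close together and far from the controls. The rise was 1.74 on the log2 scale in NT liver (SE 0.12, adjusted p = 3.42e-06) and 1.78 in nodules (SE 0.13, adjusted p = 1.68e-05).

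At 20 weeks no DEN livers split into 6.98 and 6.16 CPM of Slc7a5 in H13 and H16 and 2.53 and 2.76 CPM in H14 and H15. NT livers had 4.89, 4.28, 5.53 and 4.92 CPM, all within that range (log2 fold change 0.11, SE 0.30, adjusted p = 0.814). Nodules had 6.46, 5.59, 10.1 and 12.4 CPM in F03, H25, H26 and H28 and overlapped with no DEN liver, with a log2 fold change of 0.88 (SE 0.35, adjusted p = 0.0592). That nodule value passed the threshold without rat H13 (adjusted p = 0.0312), without rat H25 (0.0295), with DESeq2 (0.0332) and in the fit of all 8 groups (0.00549).

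The NT effect on Slc7a5 was smaller at 20 than at 14 weeks by 1.62 on the log2 scale (SE 0.34, adjusted p = 0.0283), in a test that called 0.738% of all genes. The sign was the same without any single rat, with differences from -1.82 to -1.36, but the call was lost without F03, H09, H10, H11, H13, H16, H21, H22 or H25 (adjusted p from 0.0531 to 0.0742) and in the fit of all 8 groups (0.0532). In nodules the corresponding difference was -0.91 (SE 0.42, adjusted p = 1), in a test that called 0.0862% of all genes. At 8 weeks NT livers had 4.83, 9.14, 4.48 and 5.53 CPM against 2.41 to 4.17 CPM in no DEN liver, a log2 fold change of 0.95 (SE 0.25, adjusted p = 0.0147) that was not called, though it was without rat H17 (1.07, adjusted p = 0.00688).

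Slc7a8, the neutral carrier LAT2, was higher in DEN-treated than in no DEN liver at every age. NT liver was at 6.09 to 7.04, 5.05 to 7.59 and 4.63 to 5.41 CPM at 8, 14 and 20 weeks, against 3.01 to 4.85, 2.83 to 3.71 and 2.67 to 3.87 CPM in no DEN liver, with no overlap at any age. The log2 fold changes of 0.76, 0.90 and 0.68 had adjusted p of 0.00391, 0.000893 and 0.00804 and were short of the 2-fold limit. In nodules it rose by 1.03 (SE 0.19, adjusted p = 0.00165) at 14 weeks and by 0.72 (SE 0.16, adjusted p = 0.00414) at 20 weeks.

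The log2 ratio of Slc7a5 to Slc7a8 within a sample was compared by exact 2-sided permutation, for which 4 against 4 rats allow no p below 0.0286. At 14 weeks the ratio was above no DEN liver by 0.85 in NT liver and by 0.77 in nodules. All 4 rats lay above all controls, with an exact permutation p of 0.0286 each. Adjusted over 10 ratios this p was 0.0572. Those 10 include the ratios of Slc7a6 to Slc7a7 at 20 weeks, which are given below without a test and lower the adjusted value. At 8 and 20 weeks the exact permutation p was between 0.343 and 0.629, with differences of 0.15 (NT, 8 weeks), -0.44 (NT, 20 weeks) and 0.23 (nodules, 20 weeks).

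Slc7a6, the y+L carrier also found in many tissues outside the gut and kidney, was called higher in NT liver at 8 and 14 weeks and in nodules at 14 weeks. No DEN livers had 0.842 to 1.23, 0.707 to 1.04 and 0.422 to 1.04 CPM at 8, 14 and 20 weeks, and NT livers had 2.11 to 2.54, 1.72 to 2.26 and 1.28 to 1.92 CPM. It rose in NT liver by 1.12 at 8 weeks (SE 0.18, adjusted p = 0.00112) and by 1.12 at 14 weeks (SE 0.19, adjusted p = 0.000543). At 20 weeks the mean of NT liver was 2.12 times that of no DEN liver, given without a test since the gene passed the filter only through the DEN-treated samples.

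In nodules Slc7a6 reached 5.47, 2.43, 3.42 and 2.32 CPM at 14 weeks and 2.37, 2.01, 2.81 and 2.35 CPM at 20 weeks, above all control values. The rise at 14 weeks was 1.86 (SE 0.32, adjusted p = 0.00121), and at 20 weeks the mean was 3.26 times that of no DEN liver, again without a test. The highest value, 5.47 CPM in rat F06, was 1.60 times that of the next rat. Nodule 1 of F06 was the library with the fewest counted read pairs, 20528515. In it 34.5% of read pairs had no feature, against at most 28.2% in any other library. It had the highest Slc7a6 and Slc7a7 and the lowest Slc7a2 of the nodules of 14 weeks, at 6.77, 10.3 and 6.73 CPM.

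Slc7a7, the y+L carrier known from gut, kidney and macrophages, was at 5.25 to 8.50, 4.23 to 7.44 and 4.02 to 5.66 CPM in NT liver and at 3.01 to 5.18, 2.01 to 3.84 and 2.53 to 3.73 CPM in no DEN liver at 8, 14 and 20 weeks. The ranges did not overlap, with log2 fold changes of 0.74, 0.80 and 0.66 and adjusted p of 0.0122, 0.0138 and 0.018. It rose in nodules by 0.87 at 14 weeks (SE 0.28, adjusted p = 0.0276) and by 0.73 at 20 weeks (SE 0.16, adjusted p = 0.00354). The call at 14 weeks was lost without rat H09 (0.70, adjusted p = 0.0702), without rat H10 (0.84, adjusted p = 0.0699) and with nodule 1 of each rat alone (adjusted p = 0.0584).

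Of 9 macrophage genes, Lyz2 was called higher in NT liver at 8 and 14 weeks, Cd68 and Lyz2 in nodules at 14 weeks, and Adgre1, Cd68 and Lyz2 in nodules at 20 weeks. In NT liver at 20 weeks 0 of 9 were called by edgeR and by DESeq2, with 4 at an unadjusted p of at most 0.05. Of all genes 7.91%, 15.2% and 5.22% were called in NT liver at the 3 ages in either direction, and 23.9% and 23.6% were called higher in nodules. Lyz2 rose by 1.03 in NT liver and by 1.29 in nodules at 14 weeks, and Cd68 by 0.83 in nodules, while the Kupffer cell gene Clec4f had values of -0.16 and -0.26. The median of the summed CPM was 464 in no DEN liver, 439 in NT liver and 463 in nodules at 14 weeks, while it was 640 and 851 in no DEN and NT liver at 8 weeks and 454, 560 and 474 in no DEN liver, NT liver and nodules at 20 weeks. Rat F06 had the highest Slc7a7 of its group in NT liver and nodules, and the highest macrophage sum there too, at 960 and 820 CPM. The part of macrophages in the Slc7a7 level was not tested.

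The log2 ratio of Slc7a6 to Slc7a7 was above no DEN liver by 0.89 in nodules at 14 weeks. All 4 rats lay above all controls, with an exact permutation p of 0.0286. Adjusted over 10 ratios this p was 0.0572, a value lowered by the ratios of 20 weeks, which are among the 10. At 20 weeks the ratio was higher by 0.95 in nodules and by 0.44 in NT liver. Both are given without a test since Slc7a6 passed the filter only through the DEN-treated samples. At 8 and 14 weeks in NT liver it was 0.36 and 0.29 higher, with an exact permutation p of 0.2 and 0.143.

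**Figure D3:**
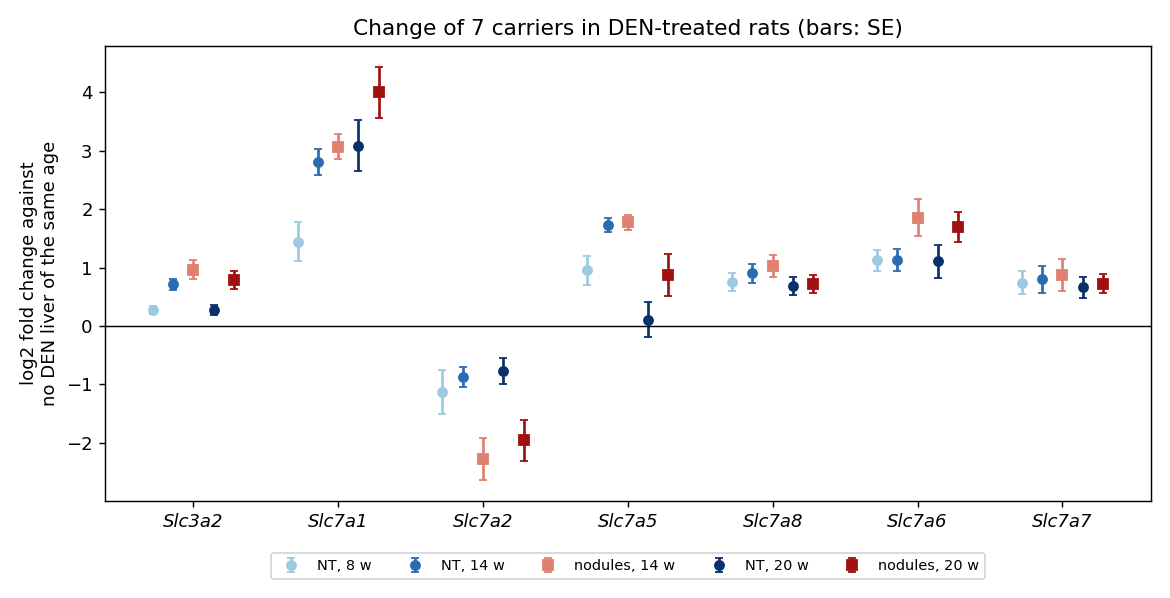
Log2 fold change (points) and SE (bars) of Slc3a2 and 6 light chains in NT liver (circles) and nodules (squares) against no DEN liver of the same age. Slc7a1, and Slc7a6 at 20 weeks, are shown as a description. Slc7a2 lies below 0 in all 5 comparisons, the nodule values of Slc7a6 lie above its NT values, and Slc7a5 in NT liver drops from 1.74 at 14 weeks to 0.11 at 20 weeks.

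Nodules were then compared with the NT liver of the same rats. Slc7a11 is left out of the counts and given without a test, since the nodule libraries may have been among those on which it was chosen. Without the pairing, 0 of the 7 other members and 0 of all genes were called at 14 weeks (0%) and at 20 weeks (0%), where 11.8% and 24% of genes had an unadjusted p of at most 0.05 and DESeq2 called 35 and 902 genes. Of the 7 members 2 and 5 had an unadjusted p of at most 0.05, and DESeq2 called 1 (Slc7a2) at 14 weeks and 4 at 20 weeks (Slc3a2, Slc7a2, Slc7a5 and Slc7a6). With the rat as a block 3 of 7 members were called at 20 weeks, where 14.7% of all genes were (1693), and 0 of 7 at 14 weeks by edgeR, where 0% of all genes were and 3 members and 22% of genes had an unadjusted p of at most 0.05. The 3 called at 20 weeks were Slc7a1, Slc7a5 and Slc7a6, all higher in nodules.

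Slc7a11 was higher in the nodules than in NT liver in all 8 rats, with ratios from 1.10 to 2.65 at 14 weeks and from 2.92 to 7.13 at 20 weeks. At 20 weeks the log2 difference was 1.93 without and 2.06 with the rat as a block. At 14 weeks it was 0.61 and, with the block, 0.79, but -0.11 with nodule 2 of each rat alone and 1.09 with nodule 1 alone. The lowest ratio was in the 14-week rat H21 and the highest in the 20-week rat H25.

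Slc7a1 was higher in nodules in all 8 rats as well, by ratios of 1.07 to 1.5 at 14 weeks and 1.54 to 2.43 at 20 weeks. Its log2 difference at 20 weeks was 0.93 (SE 0.35, adjusted p = 0.156) and 0.92 with the rat as a block (SE 0.14, adjusted p = 0.000459). For Slc7a5 the ratios at 20 weeks were 1.31 to 2.52, with log2 differences of 0.78 (adjusted p = 0.117) and, with the block, 0.74 (adjusted p = 0.00528), and at 14 weeks they were 0.981 to 1.19. For Slc7a6 they were 1.22 to 2.0 at 20 weeks, with 0.60 (adjusted p = 0.119) and, with the block, 0.62 (adjusted p = 0.0144). At 14 weeks the Slc7a6 ratios were 1.20 to 2.42, with 0.76 (adjusted p = 0.408) and, with the block, 0.68 (adjusted p = 0.188).

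Slc3a2 was higher in the nodules of all 8 rats, and at 20 weeks its log2 difference of 0.52 (adjusted p = 0.119) became 0.50 with the rat as a block (SE 0.10, adjusted p = 0.00403), just short of the limit of 0.5 in size. Slc7a2 was lower in the nodules of all 8 rats, at 0.134 to 0.571 times the NT level at 14 weeks and at 0.307 to 0.916 times at 20 weeks. Its differences of -1.38 and -1.17 had adjusted p of 0.404 and 0.112, and with the block the values were -1.49 (adjusted p = 0.167) and -1.30 (adjusted p = 0.0693). Without rat H25, whose nodules stayed nearest to NT liver, the difference at 20 weeks was -1.69 (adjusted p = 0.0203). Slc7a7 and Slc7a8 differed by at most 0.15 on the log2 scale at either age, with adjusted p from 0.724 to 0.876.

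**Figure D4:**
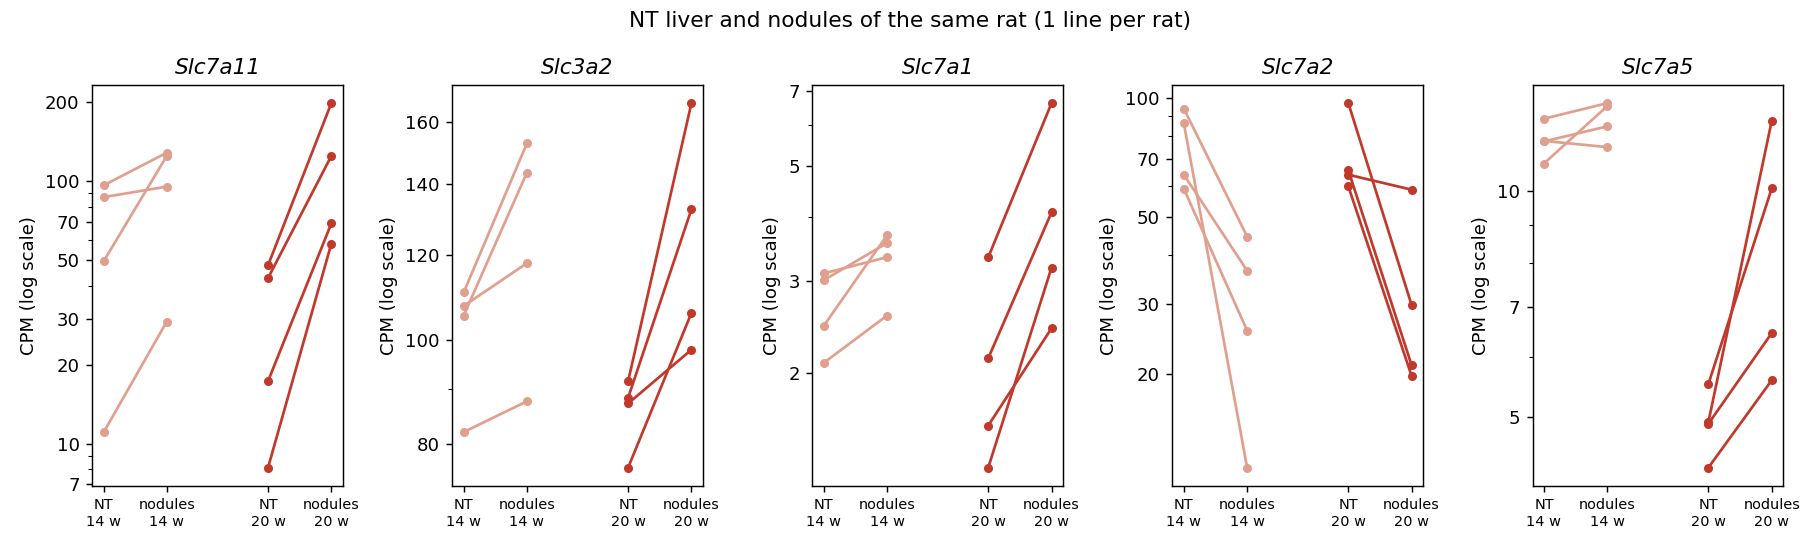
CPM (log scale) of 5 members in NT liver (left) and nodules (right), 1 line per rat, with the nodules of a rat added. The Slc7a11, Slc3a2 and Slc7a1 lines rise in all 8 rats and the Slc7a2 lines fall in all 8, and the Slc7a5 lines rise in the 4 rats of 20 weeks.

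The single nodules varied widely for Slc7a11 and Slc7a2. Slc7a11 ran from 19.8 to 194 CPM over the 8 nodules of 14 weeks (median 81.1) and from 34.5 to 262 CPM over those of 20 weeks (median 93.2), and the 2 nodules of a rat differed by 1.59 to 3.50 times and by 1.89 to 2.92 times. It was above the NT liver of the same rat in 7 of 8 nodules at 14 weeks and in 8 of 8 at 20 weeks. Slc7a2 ran from 6.73 to 50.3 CPM and from 9.66 to 86.4 CPM, below the NT liver of the same rat in 8 of 8 and in 7 of 8 nodules. In contrast Slc7a5 stayed within 11.1 to 15.2 CPM over all nodules of 14 weeks and ranged from 4.47 to 12.95 CPM at 20 weeks.

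Age alone was compared in the untreated rats. In no DEN liver 0 of 7 members that passed the filter on low counts were called between 8 and 14 weeks and 0 of 6 between 14 and 20 weeks, where 0% of all genes were called in each test (9.9% and 6.42% at an unadjusted p of at most 0.05, and 20 and 18 genes with DESeq2). Of the members 1 in each test had an unadjusted p of at most 0.05, and DESeq2 called 0. Slc7a11 was under the filter in both and Slc7a1 in the second. Slc7a2 was 0.68 higher at 14 than at 8 weeks on the log2 scale (SE 0.27, adjusted p = 0.49), and without rat H07, whose level was the highest of its group at 8 weeks, the difference was 1.01 (adjusted p = 0.00871). Without each other rat in turn its adjusted p was 0.536 or more.

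Over the 8 group means of log2 CPM, each centred on its own mean, the genes nearest to Slc7a11 among 10762 genes were Nefl, Dnaaf1, Defb1, Aldh3a1 and Trim54, at root mean square distances of 0.36, 0.44, 0.45, 0.57 and 0.76, where Slc7a11 itself had a root mean square of 4.19 around its mean. Nefl encodes a neurofilament chain and had 0.0304 and 0.864 CPM in no DEN and NT liver at 8 weeks, 20.0 and 50.5 CPM in NT liver and nodules at 14 weeks, and 13.5 and 55.7 CPM at 20 weeks. Aldh3a1, an aldehyde dehydrogenase known from chemically induced rat liver tumors, had 67.9 and 106 CPM at 14 weeks and 67.2 and 243 CPM at 20 weeks, with at most 0.203 CPM in any no DEN group mean. The genes nearest to Slc7a1 were Dkk2, Pkia, Pcyox1l, Cyp2c12 and Slc25a24, at 0.17 to 0.23 against a root mean square of 1.39. These are likenesses over 8 means and carry no test. Among the members themselves the nearest pair was Slc7a7 and Slc7a8, at 0.08.

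Of the 9 other SLC7 and SLC3 genes, Slc7a12 and Slc7a14 had 0 counts in all 40 libraries, which allows up to 3 read pairs in each, and Slc7a3, Slc7a9, Slc7a10 and Slc7a13 never had more than 3 read pairs. Slc7a15 reached 16 read pairs. The remaining 2 were Slc7a4 and Slc3a1, the heavy chain of the renal cystine carrier. Slc7a4 was called higher in nodules at 14 weeks, and at 20 weeks it passed the filter only through the nodules, as Slc3a1 did at both ages. Slc7a4 had 1.90 ± 0.38 against 0.774 ± 0.285 CPM at 14 weeks and 1.58 ± 0.60 against 0.461 ± 0.201 CPM at 20 weeks (SD, n = 4), and Slc3a1 in nodules had 0.507 against 0.127 CPM and 0.424 against 0.0358 CPM.

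Among 21 further amino acid carriers, 20 were in the files. Of those that passed the filter in no DEN liver alone, 4 of 16 were higher and 4 lower in nodules at 14 weeks and 3 of 15 higher and 5 lower at 20 weeks, where 35.6% and 35% of all such genes were called in either direction. The median log2 fold change was -0.04 and -0.11 beside -0.06 and -0.06 over those genes. The glutamine carrier Slc1a5 rose by 2.27 at 14 weeks and had 2.01 against 0.613 CPM at 20 weeks, and the neutral carrier Slc1a4 by 1.49 and 1.69 at 14 and 20 weeks. The glutamate carrier Slc1a3 was near the detection limit in no DEN liver, with mean levels of 0.600 against 0.136 CPM and of 0.637 against 0.0593 CPM. The aromatic amino acid carrier Slc16a10 fell by 1.66 and 1.40 and the leucine carrier Slc43a1 by 1.52 and 1.17. Slc38a4, which carries neutral and some cationic amino acids into hepatocytes, fell by 1.27 and 1.38. In NT liver 1 of 16 was called at 8 weeks (Slc1a5, higher), while 16 gave 2 higher and 2 lower at 14 weeks, and 15 gave 0 at 20 weeks by edgeR and by DESeq2, with 7 at an unadjusted p of at most 0.05. Of all such genes 6.08%, 11.6% and 3.59% were called at these ages.

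In the list of cysteine supply and glutathione genes, which share the cysteine pool with system xc-, 15 passed the filter in no DEN liver alone at 14 and at 20 weeks. Of these 6 were higher and 4 lower in nodules at 14 weeks, and 8 higher and 3 lower at 20 weeks, where 35.6% and 35% of all such genes were called in either direction. The median log2 fold change was 0.31 and 0.57, beside -0.06 and -0.06 over those genes. Ggt1, the enzyme that opens extracellular glutathione, had 0.387 ± 0.140 CPM in no DEN liver and 27.3 ± 9.31 in nodules at 14 weeks, and 0.483 ± 0.083 and 40.8 ± 22.7 CPM at 20 weeks (SD, n = 4). Gclc and Gclm, the subunits of the rate-limiting enzyme of glutathione synthesis, rose by 2.68 and 2.50 at 14 weeks and by 2.51 and 2.62 at 20 weeks. Txnrd1, a thioredoxin reductase, rose by 2.12 and 1.97 and Dpep1, a dipeptidase that splits cysteinylglycine, by 1.69 and 1.65. Cbs and Cth, which make cysteine from homocysteine, and Cdo1, which oxidises cysteine, fell by 1.22, 0.85 and 1.52 at 14 weeks and by 1.29, 1.26 and 1.19 at 20 weeks. In NT liver the list gave 2 higher of 16 at 8 weeks, 5 higher and 2 lower of 15 at 14 weeks and 4 higher of 15 at 20 weeks, beside 6.08%, 11.6% and 3.59% of all such genes.

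The arginine and ornithine genes, whose substrates enter through Slc7a1 and Slc7a2, went both ways. Of 10 tested, 3 were higher and 3 lower in nodules at 14 weeks and 4 higher and 5 lower at 20 weeks, where 23.9% and 23.6% of all genes were called higher and 39.1% and 38.8% in either direction, with medians of -0.41 and -0.59. Oat, which breaks down ornithine, fell by 2.33 and 2.09 and Ass1, which makes argininosuccinate in the urea cycle, by 1.14 and 1.48. Nos3, the endothelial nitric oxide synthase, rose by 1.59 and 1.19, and Gatm, which starts creatine synthesis from arginine, by 1.39 and 1.18. In NT liver 1 was higher (Nos3) and 1 lower (Oat) at 8 weeks, 2 were higher (Nos3 and Gatm) and 1 lower (Oat) at 14 weeks, and 0 were called at 20 weeks by edgeR, where all 10 had an unadjusted p of at most 0.05 and DESeq2 called 2 (Gatm and Oat), while 7.91%, 15.2% and 5.22% of all genes were called by edgeR at these ages.

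Of 8 targets of NRF2, 2 were higher in NT liver at 8 weeks, 6 at 14 weeks and 5 at 20 weeks, and 8 of 8 in nodules at both ages, with none lower. Over all genes 7.91%, 15.2% and 5.22% were called in NT liver in either direction, and 23.9% and 23.6% were called higher in nodules. Nqo1, a quinone reductase, rose by 1.72, 4.10 and 2.55 in NT liver at 8, 14 and 20 weeks and by 4.73 and 4.14 in nodules at 14 and 20 weeks. Srxn1, which repairs peroxiredoxins, rose by 1.32, 3.34 and 2.10 in NT liver and by 3.77 and 3.48 in nodules. The list shares Gclc, Gclm, Gsr and Txnrd1 with the list of glutathione genes, which also shares Chac1 with the ATF4 targets.

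Of 9 targets of ATF4, 3 were higher in NT liver at 8 weeks, 5 at 14 weeks and, of the 8 that passed the filter in no DEN liver alone, 3 at 20 weeks, with none lower. In nodules 5 were higher and 1 lower (Sesn2) at 14 weeks, and 5 of 8 higher and 1 lower (Sesn2) at 20 weeks. The shares of all genes passing in no DEN liver that were called in either direction were 6.08%, 11.6% and 3.59% in NT liver and 35.6% and 35% in nodules. Phgdh, the first enzyme of serine synthesis, rose by 2.07 and 3.89 in NT liver at 8 and 14 weeks and by 4.39 in nodules at 14 weeks, and had 0.842, 11.8 and 25.95 CPM in no DEN liver, NT liver and nodules at 20 weeks. Psat1, the next enzyme of that pathway, rose by 1.26, 2.53 and 2.02 in NT liver and by 2.90 and 3.05 in nodules. Asns, which makes asparagine, was called at 14 and 20 weeks, with rises of 1.31 and 1.35 in NT liver and of 1.64 and 2.23 in nodules. The messenger RNA of the regulators themselves gave 0 calls in the 5 comparisons by edgeR and by DESeq2 over 6 genes that include Nfe2l2 (NRF2), Keap1 and Atf4, with 1 to 4 of the 6 at an unadjusted p of at most 0.05. Nfe2l2 had a log2 fold change of 0.28 (adjusted p = 0.0181) in NT liver at 14 weeks and of -0.45 (adjusted p = 0.00433) in nodules at 20 weeks.

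Markers of other cell types moved with treatment as well. The summed CPM of 4 bile duct genes had medians of 18.7, 64.8 and 95.2 in no DEN liver, NT liver and nodules at 14 weeks and of 19.0, 47.0 and 130 at 20 weeks. Of those that passed the filter in no DEN liver alone, 3 of 3 were called higher in nodules at 14 weeks and 2 of 2 at 20 weeks. Of all such genes 35.6% and 35% were called in either direction. The endothelial sum of 6 genes was 102, 205 and 204 CPM at 14 weeks and 99.4, 189 and 185 at 20 weeks. The sum of 7 stellate cell genes was 247, 448 and 456 CPM and 216, 274 and 330 CPM. Of these 7, Acta2, Col1a1, Col3a1 and Des were called higher in nodules at both ages. Col3a1 alone had 139.5 CPM in no DEN liver and 307.1 CPM in nodules at 14 weeks. In nodules Pdgfrb had log2 fold changes of -0.50 and -0.39 and Reln of -0.19 and -0.09, without a call. The 6 proliferation genes had 35.4, 156 and 171 CPM at 14 weeks and 37.1, 64.9 and 113 CPM at 20 weeks. In NT liver their sum was lower at 20 than at 14 weeks, as was the mean of every member. The medians of the bile duct, stellate and proliferation sums were lowest in no DEN liver and highest in nodules at both ages. The same order held for the means of every member but Slc7a2.

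The T and NK cell sums of NT liver lay above those of no DEN liver at each age, at 10.7 to 13.6 against 4.48 to 6.79 CPM at 8 weeks, 5.94 to 11.2 against 4.10 to 5.50 CPM at 14 weeks and 7.09 to 10.8 against 3.67 to 5.80 CPM at 20 weeks. Those of nodules did too, at 5.98 to 15.4 and 6.33 to 10.3 CPM at 14 and 20 weeks. The neutrophil genes of NT liver summed to 8.61 to 17.8 against 1.31 to 3.12 CPM at 8 weeks, with S100a9 higher by 2.59 on the log2 scale and S100a8 at 2.83 against 0.472 CPM. Of the 8 T and NK cell genes Klrb1 was at 0 in all no DEN groups but that of 14 weeks and in NT liver of 8 and 14 weeks. Over all ages the 5 neutrophil genes summed to 1.31 to 5.66 CPM in no DEN liver and 3.49 to 29.2 CPM in DEN-treated tissue, with Mpo and Camp at 0 in no DEN liver at 14 and 20 weeks and Camp also at 8 weeks, and the 4 B and plasma cell genes to at most 2.66 CPM. In each DEN-treated group the highest neutrophil sum was in a rat labelled F, up to 29.2 CPM in nodules of F06. At 20 weeks nodules of rats labelled H had 3.49 to 4.91 CPM, within the 1.88 to 5.66 CPM of no DEN liver. The highest T and NK cell sum, 15.4 CPM, was in nodules of F06 as well. The part of the letter, or of any of these cell types, in the levels of the carriers was not tested.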

How the data were processed

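Liver RNA-seq of 24 rats (40 libraries, 8 groups of 4 rats) was analysed. The authors made stranded mRNA libraries, aligned paired reads to rn6 with STAR 2.7.1a and counted them per gene with HTSeq, and deposited raw counts per gene for each library. Their notes also name DESeq2 1.22.2. Lines that name no gene (reads without a feature, ambiguous or aligned more than once) were left out. The counted read pairs per library, 20528515 to 160622633, set the precision, and intervals cover counting error only.

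For each rat the counts of both nodules were summed, and n is the number of rats. Groups came from the labels. Each comparison was fitted alone with edgeR 4.0.16 in R 4.3.3 (filterByExpr, TMM scaling, robust quasi-likelihood F test, Benjamini-Hochberg adjustment over all genes tested), and the code was tested on simulated data. Fold changes are on the log2 scale of the fit. Genes that filterByExpr kept only through the DEN-treated samples, and not in the no DEN livers of that comparison alone, were left out of counts and medians of lists. The paper words both of its limits as fold changes without naming the scale. That for NT liver, given for 8 and 14 weeks and used here at 20 weeks too, was read as linear, and that for nodules as log2. Differences between effects at 2 ages were tested as interaction terms at an adjusted p of at most 0.05. The genes named are all members, the 5 genes nearest to Slc7a11 and to Slc7a1 by root mean square distance among those with mean levels from 0.5 CPM upwards, and at most 5 called genes of each list and comparison by size of the difference. Cbs, Cth, Cdo1, Sesn2, Nfe2l2 and the marker genes were named after their values were seen. The members and lists were chosen with earlier results of these data known. Replicate libraries were not identical in any pair and differed beyond sampling noise (lowest chi-square per degree of freedom 12.9).

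NT liver and nodules come from the same rats. Their deviations from the group means correlated within each rat over 10109 genes, at 0.385 to 0.631 at 14 weeks and at 0.577 to 0.658 at 20 weeks, and were above the highest correlation with another rat in each rat but H21 (0.514 against 0.522). As both tissues are of 1 animal, the rat was used as a block in an alternative fit. Other alternatives were DESeq2 1.42.0, RLE scaling, keeping low genes, fitting all 8 groups, single nodules, other thresholds, leaving out each rat, and leaving out rats labelled F.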

Additional observations from a re-analysis of the deposited data

Results flagged for a closer look

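Single rats or nodules that lay far from the rest of their group were found in 5 of the 64 groups of values examined, where chance gives about 1 in 20. Slc7a2 was 142 CPM in rat H07 without DEN at 8 weeks, against 66.0 to 74.3 CPM in the other 3 rats. In NT liver at 20 weeks Slc7a2 was 97.2 CPM in rat H26, the rat with the deepest library, against 59.7 to 65.6 CPM. Among the 8 single nodules of 20 weeks, nodule 2 of rat H25 had 86.4 CPM of Slc7a2 and the others 9.66 to 33.9 CPM. Slc7a6 in NT liver at 8 weeks was 2.54 CPM in rat H18, against 2.11 to 2.18 CPM. Slc7a11 in no DEN liver at 14 weeks was 0.213 CPM in rat H11, from 6 read pairs, against 0.0331 to 0.0400 CPM, from 1 read pair each.

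The effect of DEN on NT liver differed between ages for 2 members by the interaction test of edgeR. For Slc3a2 the effect was larger at 14 than at 8 weeks by 0.44 (adjusted p = 0.037), with all 4 NT livers above all no DEN livers at both ages. For Slc7a5 the effect at 20 weeks minus that at 14 weeks was -1.62 (adjusted p = 0.0283). Both calls were lost without single rats, as given with each result.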

How the results depend on the processing

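Most values moved little with the processing. Apart from leaving out single rats, 132 of the counts and ratios stayed within their limits and 34 did not. Of the values of single members 372 kept direction and call (without a test, stayed within 1 SD), 29 gained a call, 3 lost it, 2 moved by more than 1 SD and 2 turned sign. With a log2 fold change of 0.5 and an adjusted p of 0.05, NT liver gave 2344, 3592 and 1957 genes at 8, 14 and 20 weeks, with 5, 6 and 3 members. For nodules against NT liver DESeq2 gave 35 genes and 1 member at 14 weeks and 902 genes and 4 members at 20 weeks. At 20 weeks the fit of all 8 groups gave 1096 genes and 4 members, nodule 1 alone 218 genes and 1 member, and the rat as a replicate block 1693 genes and 3 members. The block changed no other call of a member, and the same fit without it called 0 genes. In no DEN liver DESeq2 gave 20 genes between 8 and 14 weeks and 18 between 14 and 20 weeks, no filter on low genes 2 and 2, and the fit of all 8 groups 1 between 8 and 14 weeks. For the change of the NT effect from 8 to 14 weeks DESeq2 gave 1529 genes, the fit of all 8 groups 151 genes and 0 members, and leaving out the rats labelled F 2 members. From 14 to 20 weeks DESeq2 gave 382 genes and 2 members, the fit of all 8 groups 41 genes and 0 members, and leaving out the rats labelled F 182 genes and 2 members. For the change of the nodule effect DESeq2 gave 29 genes, the fit of all 8 groups 16 and nodule 1 alone 5. With nodule 2 alone the difference of nodules from NT liver at 14 weeks was -0.017 for Slc7a5 and -0.11 for Slc7a11. The cause of these shifts was not tested.

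Without single rats, NT liver gave 1 to 2 members at 8 weeks and 250 to 649 genes at 20 weeks (325, 343 and 250 without H14, H15 and H16). Slc7a5 in NT liver at 20 weeks ran from -0.094 to 0.34. Nodules against NT liver at 20 weeks ran from 0 to 445 genes and 0 to 1 members, both highest without H25, and Slc7a8 from -0.021 to 0.17. The age comparisons ran from 0 to 117 genes and 0 to 1 members (8 to 14 weeks, highest without H07) and from 0 to 2 genes (14 to 20 weeks). The change of the NT effect ran from 533 to 1870 genes and 0 to 1 members (14 against 8 weeks) and from 31 to 408 genes and 0 to 2 members (20 against 14 weeks), and that of the nodule effect from 6 to 15 genes. The ratio of Slc7a5 to Slc7a8 ran from -0.037 to 0.25 in NT liver at 8 weeks and from -0.028 to 0.46 in nodules at 20 weeks. With 4 rats in a group the smallest p of a ratio test is 0.0286 before adjustment. Slc7a11 in no DEN liver rests on 0 to 9 read pairs per library, which limits the ratios given for it.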
